A study of Mus musculus with 12 samples.

Results

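The fatty acid desaturases and elongases examined here were 9 genes, *Fads1*, *Fads2*, *Fads3*, *Scd2*, *Elovl1*, *Elovl2*, *Elovl3*, *Elovl5* and *Tecr*. The members were all non-control probes whose RefSeq record belongs to one of these genes. This gave 10 of the 39429 probes on the array and 9 of the 20017 genes named by a RefSeq record, with 2 probes for *Elovl1* and 1 for each other gene. All 10 probes were well above background in both dyes on all 12 arrays, so no member was lost to the filter on dim probes. *Elovl1* and *Elovl3* mainly lengthen saturated and monounsaturated chains, *Scd2* makes monounsaturated ones and *Tecr* serves every elongation cycle, so the set is wider than enzymes of polyunsaturated fatty acids alone.

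Mammals make long polyunsaturated fatty acids from dietary precursors by alternating desaturation, which adds a double bond, and elongation, which adds carbons from malonyl-CoA in the endoplasmic reticulum. In liver, FADS2 and FADS1 insert the double bonds, ELOVL5 and ELOVL2 start the elongation cycles between them, and TECR carries out the last reduction of each cycle. Many of these genes are known targets of SREBP1c, the lipogenic factor encoded by *Srebf1*, of liver X receptors and of PPARα, and their products are in turn known to restrain SREBP1c.

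Liver RNA came from male *db*/*db* mice aged 8 weeks, an obesity model without a functional leptin receptor, and all treated and control animals carried this defect. H2 was given by 1, 3 or 7 days of MgH2 gavage at 0.9 mg/kg, as the labels state the dose, with Mg(OH)2 as the control in the study's methods, or by 14 days of drinking H2-water at 0.8 mM, with degassed water as the control. Each two-color array compared an H2-treated pool labeled with Cy5 with a control pool labeled with Cy3, each pool holding RNA of 3 mice by the study's methods, and there were 3 arrays per group. No array had the dyes exchanged, and a bias of a probe toward either dye is therefore part of its ratio. The 14-day arrays lay on a slide of their own and were extracted with another software version, so that MgH2 against H2-water cannot be told apart from route, duration, control, slide and software. The summed signal of 5 hepatocyte markers was 1050 to 1890 times the channel median over all arrays and both dyes, and 51.8% to 56.5% of spots were well above background in both dyes.

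The control channel repeated itself across the MgH2 days. The log2 level of a probe, its processed signal relative to the channel median of that array, had a median SD of 0.0586 among control channels of the same replicate number at 1, 3 and 7 days, and of 0.101 among control channels of the same day, over 18397 probes. In the treated channel the order was the opposite, with 0.121 for the same number and 0.0936 for the same day. Deviations of the control channels from their day's mean correlated between days for the same number (r from 0.321 to 0.67 over 9 pairs of arrays) and reached at most 0.092 between different numbers. The labels name a control for each day, and whether a single set of control pools served all 3 days is not given in the sources used here. The MgH2 days are therefore given side by side as comparisons that may share their controls, and likeness among them is not read as repeated support.

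Promoters are shown for genes whose ratios were lower on all 9 MgH2 arrays than on all 3 H2-water arrays, as given below. These were *Elovl5*, *Fads2* and *Tecr*, and also *Scd2*, which had no entry in the table of promoters. Each promoter is 300 bases around a RefSeq start on assembly GRCm38.p6, written 5′ to 3′ along the gene, and 6 of the 9 genes had an entry. Capitals mark matches, on either strand, to 5 motifs searched.
*Elovl5* promoter, chr9:77917115-77917414, plus strand: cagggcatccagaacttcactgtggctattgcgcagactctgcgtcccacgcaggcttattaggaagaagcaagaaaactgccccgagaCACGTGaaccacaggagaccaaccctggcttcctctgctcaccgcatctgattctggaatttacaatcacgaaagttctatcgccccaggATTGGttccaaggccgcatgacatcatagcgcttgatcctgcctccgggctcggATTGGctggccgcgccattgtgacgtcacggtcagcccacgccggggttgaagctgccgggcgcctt
*Fads2* promoter, chr19:10101454-10101753, minus strand: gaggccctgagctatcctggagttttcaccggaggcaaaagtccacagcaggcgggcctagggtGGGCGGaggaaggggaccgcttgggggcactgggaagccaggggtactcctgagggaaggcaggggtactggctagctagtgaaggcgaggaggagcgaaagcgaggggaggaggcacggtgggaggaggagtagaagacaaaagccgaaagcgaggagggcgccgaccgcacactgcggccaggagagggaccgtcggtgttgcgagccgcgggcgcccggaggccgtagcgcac
*Tecr* promoter, chr8:83594442-83594741, minus strand: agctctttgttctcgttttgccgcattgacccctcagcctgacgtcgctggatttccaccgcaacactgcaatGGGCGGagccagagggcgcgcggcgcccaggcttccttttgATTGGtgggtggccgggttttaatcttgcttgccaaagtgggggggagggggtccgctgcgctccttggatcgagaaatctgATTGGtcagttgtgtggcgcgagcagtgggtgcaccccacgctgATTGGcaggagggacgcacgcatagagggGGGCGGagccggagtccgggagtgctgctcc
The motifs were the sterol regulatory element TCACNCCAC, the NF-Y box CCAAT, the Sp1 box GGGCGG, the E-box CACGTG and the direct repeat with 1 spacer base that nuclear receptors bind. The *Elovl5* window held 2 NF-Y boxes and 1 E-box, the *Tecr* window 3 NF-Y boxes and 2 Sp1 boxes, and the *Fads2* window 1 Sp1 box. The NF-Y box occurred in 37.4% of all 32851 promoters of that length in the table, the Sp1 box in 35.7%, the E-box in 7.15%, the sterol regulatory element in 1.24% and the direct repeat in 0.0396%. None of the 8 promoter windows of the members held the sterol regulatory element or the direct repeat in these letters, which says only that these letters are not in these windows. *Fads1*, *Fads2* and *Fads3* are neighboring genes on mouse chromosome 19, which also carries *Scd2* and *Elovl3*.

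*Elovl5*, the elongase of polyunsaturated chains of middle length, was lower than control at 3 and 7 days of MgH2 and higher than control under H2-water. Its log2 ratio of treated over control was -0.11, -0.16 and -0.01 at 1 day, -0.38, -0.50 and -0.46 at 3 days and -0.21, -0.49 and -0.61 at 7 days of MgH2. After 14 days of H2-water it was 0.35, 0.46 and 0.28. All 9 MgH2 arrays were below 0, all 3 H2-water arrays were above 0, and the groups did not overlap. The mean log2 ratio was -0.45 ± 0.06 (SD, n = 3) at 3 days and -0.44 ± 0.20 at 7 days, which corresponds to a fall of 1.36-fold and 1.35-fold (adjusted P = 0.00185 and 0.00138, limma with Benjamini-Hochberg adjustment over all probes tested). At 1 day it was -0.09 ± 0.07 and did not pass (adjusted P = 0.426). After H2-water it was 0.36 ± 0.09, a rise of 1.29-fold (adjusted P = 0.0115), and this call was lost without replicate 1 (adjusted P = 0.0697) or replicate 2 (adjusted P = 0.0825).

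The difference between the 2 ways of giving H2 was itself tested for *Elovl5*. The log2 ratio at 3 days of MgH2 was lower than after H2-water by a difference of -0.81 (SE 0.09, adjusted P = 0.0126, limma), and at 7 days by -0.80 (SE 0.09, adjusted P = 0.00692). At 1 day the difference was -0.46 (95% interval -0.67 to -0.24) and did not pass (adjusted P = 0.115). Over the mean of the 3 MgH2 days it was -0.69 (SE 0.08, adjusted P = 0.00629), a ratio 1.61-fold lower. The call at 3 days was lost without replicate 2 of H2-water (adjusted P = 0.0568) or replicate 2 of MgH2 (adjusted P = 0.0611), and the call over the mean was lost when the MgH2 days were averaged within a replicate number, which left 3 values against 3 (adjusted P = 0.066).

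**Figure D1:**
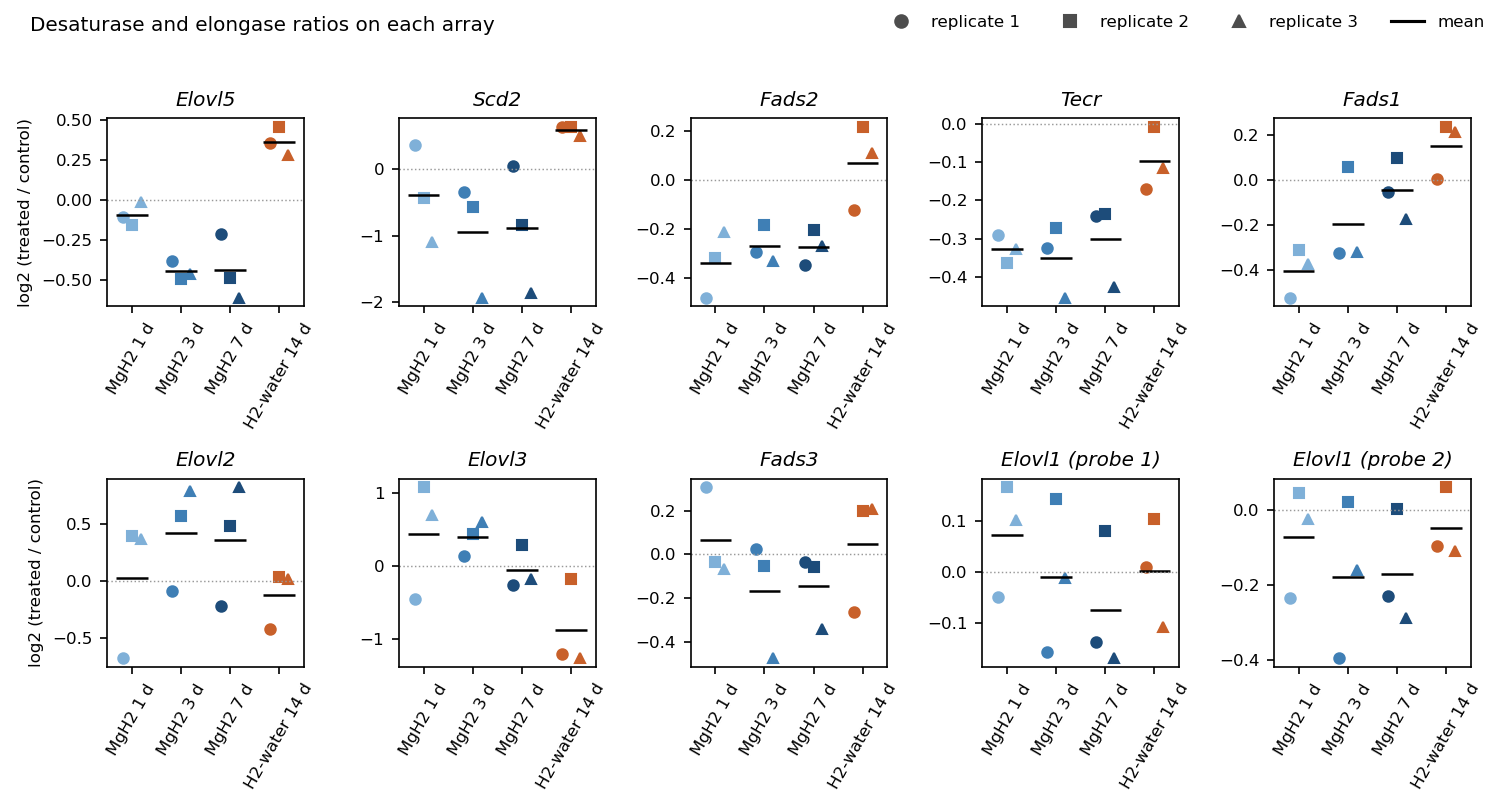
Log2 ratio of treated over control for each member probe on each of the 12 arrays, with a panel and a scale of its own per probe, the marker shape giving the replicate number, the bar the mean of 3 arrays and the dotted line 0. *Elovl5*, *Scd2*, *Fads2* and *Tecr* are the 4 panels in which all 9 MgH2 points lie below all 3 H2-water points.

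The control channel of *Elovl5* had a log2 level between 5.001 and 5.491 on the 9 MgH2 arrays and between 5.134 and 5.411 on the 3 H2-water arrays. The treated channel was 5.054, 5.199 and 5.244 at 1 day, 4.603, 4.996 and 4.858 at 3 days and 4.884, 4.896 and 4.739 at 7 days of MgH2. It was 5.487, 5.793 and 5.692 after H2-water. Control levels thus overlapped between the 2 experiments, whereas every treated level under MgH2 was below every treated level under H2-water. Levels were set across slides here and were not tested. Across the 3 MgH2 days the ratios of *Elovl5* did not pass the F test for a difference between days (F = 9.09, adjusted P = 0.0916), and they passed without replicate 1 of 7 days (F = 23.1, adjusted P = 0.0432). On the slide that held both 1 and 3 days, its ratio was lower at 3 days by a difference of -0.29 (1 array against 3), and on the slide that held both 3 and 7 days it was higher at 7 days by 0.13 (2 arrays against 2).

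*Tecr*, the enoyl-CoA reductase that closes each elongation cycle, was lower than control at all 3 MgH2 times. Its log2 ratio was -0.29, -0.36 and -0.33 at 1 day, -0.32, -0.27 and -0.45 at 3 days and -0.24, -0.24 and -0.43 at 7 days. After H2-water it was -0.17, -0.01 and -0.12. The groups did not overlap, although all 12 arrays were below 0. The mean fell by 0.33 at 1 day (SD 0.04, adjusted P = 0.00538), by 0.35 at 3 days (SD 0.09, adjusted P = 0.00157) and by 0.30 at 7 days (SD 0.11, adjusted P = 0.00215) on the log2 scale in the fit with limma, or 1.23-fold to 1.27-fold. These calls held when each array of the group was left out in turn (adjusted P from 0.00747 to 0.0493). After H2-water the mean was -0.10 ± 0.08 and did not pass (adjusted P = 0.279), and the difference of the MgH2 mean from H2-water, -0.23 (95% interval -0.36 to -0.10), did not pass either (adjusted P = 0.0616). That difference passed with the replicate block (adjusted P = 0.0329), with the slide as a random block (0.0292) and with another background correction and loess (0.0181), but not with a random block of number within experiment (0.108) or with 3 averaged values against 3 (0.148). The spread of *Tecr* was small in both channels, with treated log2 levels between 4.20 and 4.32 and control levels between 4.54 and 4.72 on the MgH2 arrays. On the H2-water arrays treated levels ran from 3.508 to 3.615 and control levels from 3.627 to 3.678. In each channel every MgH2 level was thus above every H2-water level, although the ratios were lower under MgH2. These levels were set across slides and were not tested.

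*Fads2* and *Fads1* encode the desaturases that insert double bonds into polyunsaturated precursors, *Fads2* acting first. The log2 ratio of *Fads2* was -0.48, -0.32 and -0.21 at 1 day, -0.29, -0.18 and -0.33 at 3 days and -0.35, -0.20 and -0.27 at 7 days of MgH2. After H2-water it was -0.12, 0.21 and 0.11, so that all 9 MgH2 arrays lay below the lowest H2-water array. The mean fell by 0.34 at 1 day (SD 0.14, adjusted P = 0.0159), by 0.27 at 3 days (SD 0.08, adjusted P = 0.0187) and by 0.27 at 7 days (SD 0.07, adjusted P = 0.0136) in the fit with limma. It was 0.07 ± 0.17 after H2-water (adjusted P = 0.619). The mean of the MgH2 days differed from H2-water by -0.36 (SE 0.08, adjusted P = 0.0393, limma), whereas no single day did (adjusted P from 0.0607 to 0.148). The mean control log2 level of *Fads2* was 0.219, 0.225 and 0.24 at 1, 3 and 7 days of MgH2, and -0.292 for H2-water. Its mean treated level was -0.129, -0.047 and -0.037 against -0.227. Both channels thus had a higher mean level on the MgH2 arrays, the lower ratio notwithstanding. These levels were set across slides and were not tested.

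The calls of *Fads2* were lost when some arrays were left out. At 1 day the call was lost without replicate 1 (adjusted P = 0.0929) or 2 (adjusted P = 0.0797), at 3 days without replicate 1 (0.0765) or 3 (0.0972) and at 7 days without replicate 1 (0.0828) or 3 (0.0633). The call of the mean against H2-water was lost without each H2-water array in turn (adjusted P = 0.0548, 0.16 and 0.152), without replicate 2 of 1 day (0.0695), without replicates 1, 2 and 3 of 3 days (0.0552, 0.0543 and 0.062) and without replicates 1 and 3 of 7 days (0.0541 and 0.0688). It was also lost with the MgH2 days averaged within a number (adjusted P = 0.135).

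*Fads1* was called below control at 1 day of MgH2 and was not called at 3 or 7 days. Its log2 ratio was -0.52, -0.31 and -0.37 at 1 day, -0.32, 0.06 and -0.32 at 3 days and -0.05, 0.10 and -0.17 at 7 days. After H2-water it was 0.01, 0.24 and 0.21, which overlapped with the MgH2 arrays. The mean at 1 day was -0.40 ± 0.11 and passed (adjusted P = 0.0174, limma), and this call was lost without any of the 3 arrays (adjusted P from 0.0634 to 0.098). The means of -0.20 ± 0.22 at 3 days (adjusted P = 0.118) and -0.04 ± 0.14 at 7 days (adjusted P = 0.731) did not pass, and the F test for a difference between the days did not pass (adjusted P = 0.217). Without replicate 2 the mean at 3 days was -0.32 and passed (adjusted P = 0.0341). With replicate number as a block, the 1-day difference from H2-water passed for *Fads1* (-0.56, adjusted P = 0.037 against 0.117 without the block) and for *Fads2* (-0.40, adjusted P = 0.0487 against 0.148).

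*Fads3*, known to act on sphingoid bases, did not pass in any comparison. Its log2 ratio ran from -0.47 to 0.31 over the 9 MgH2 arrays and from -0.26 to 0.21 over the 3 H2-water arrays, with means from -0.17 to 0.07. The difference of the MgH2 mean from H2-water was -0.13, with a 95% interval of -0.44 to 0.18.

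*Scd2*, a stearoyl-CoA desaturase that makes monounsaturated chains, had ratios that spread widely under MgH2, in the same order of replicate numbers at 3 and 7 days as at 1 day. Its log2 ratio was 0.36, -0.43 and -1.10 at 1 day, -0.35, -0.56 and -1.93 at 3 days and 0.05, -0.84 and -1.86 at 7 days of MgH2. After H2-water it was 0.64, 0.63 and 0.50. All 9 MgH2 arrays lay below all 3 H2-water arrays, and replicate 3 was the lowest at each MgH2 time. The means of -0.39 ± 0.73 at 1 day, -0.95 ± 0.86 at 3 days and -0.88 ± 0.96 at 7 days did not pass (adjusted P = 0.572, 0.101 and 0.108, limma). The mean of 0.59 ± 0.08 after H2-water did not pass either (adjusted P = 0.396), in a fit that shares 1 estimate of the spread over all groups. Fitted on its own 3 arrays it passed (adjusted P = 0.0223). The MgH2 mean differed from H2-water by -1.33, with a 95% interval of -2.30 to -0.36 (adjusted P = 0.115).

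The same order was seen in the *Scd2* control channel, turned around. Control log2 levels for replicates 1, 2 and 3 were -0.65, -0.11 and 0.99 at 1 day, -0.77, -0.08 and 0.97 at 3 days and -0.67, -0.10 and 0.82 at 7 days. Treated levels were -0.30, -0.55 and -0.12 at 1 day, -1.14, -0.64 and -0.95 at 3 days and -0.62, -0.94 and -1.04 at 7 days. The means of the 3 numbers differed by up to 1.62 in the control channel and by up to 0.022 in the treated channel, and control levels of 1 number stayed within 0.164 of each other over the days. With replicate number as a block, *Scd2* passed as lower at 3 days (adjusted P = 0.0132) and 7 days (adjusted P = 0.0138), a fit that takes the differences between the numbers out of the error.

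**Figure D2:**
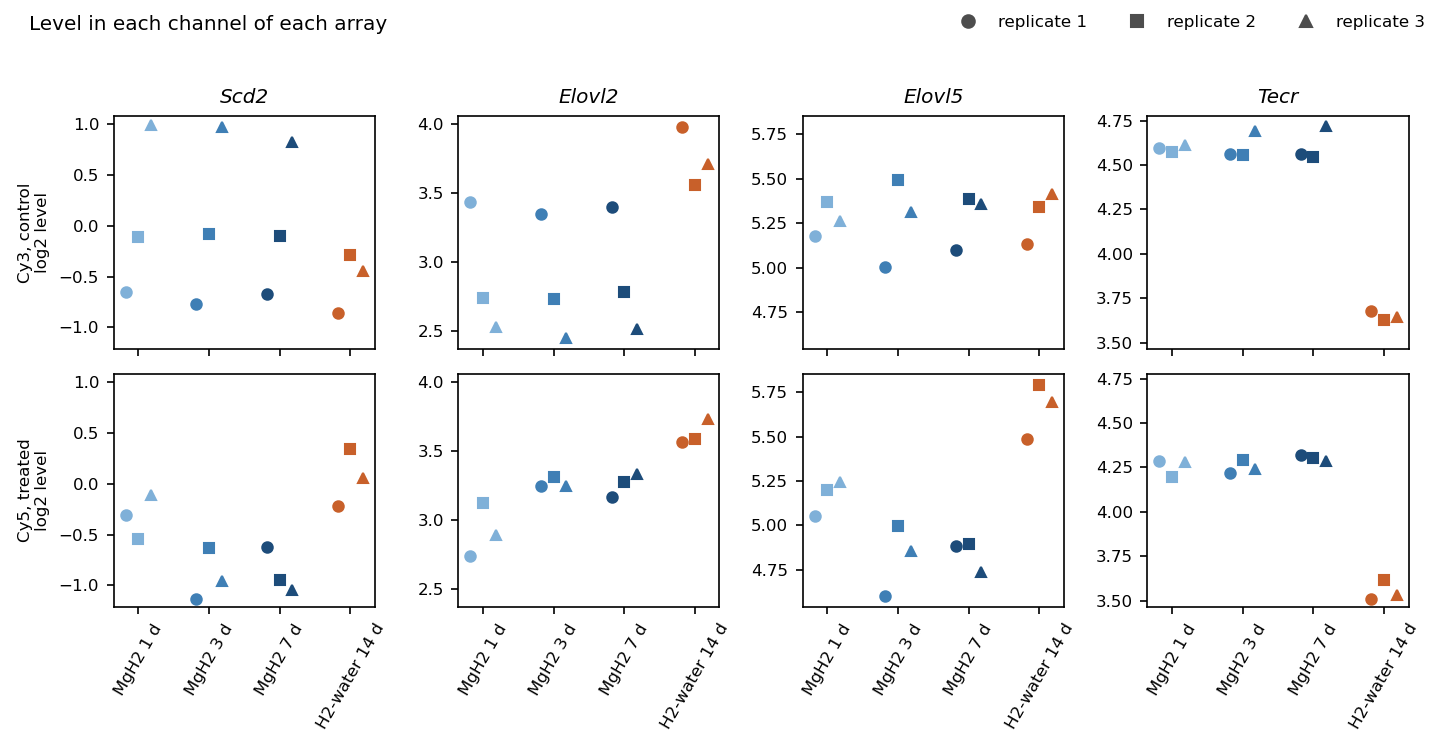
Log2 level of *Scd2*, *Elovl2*, *Elovl5* and *Tecr* in the control channel (Cy3, top) and the treated channel (Cy5, bottom) of each array, relative to the channel median of that array, with marker shapes for replicate numbers and 1 scale per gene. For *Scd2* and *Elovl2* the control points of a number stand at about the same height at 1, 3 and 7 days of MgH2, while the numbers differ by up to 1.62 and 0.895.

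*Elovl2*, the elongase that carries polyunsaturated chains toward precursors of docosahexaenoic acid, mirrored this arrangement. Its log2 ratio was -0.68, 0.40 and 0.37 at 1 day, -0.09, 0.57 and 0.79 at 3 days and -0.22, 0.49 and 0.83 at 7 days of MgH2. Replicate 1 was below 0 and replicates 2 and 3 above 0 at each time. Control log2 levels for replicates 1, 2 and 3 were 3.43, 2.74 and 2.53 at 1 day, 3.35, 2.73 and 2.45 at 3 days and 3.39, 2.79 and 2.51 at 7 days, whereas treated levels ran from 2.74 to 3.33 over the 9 arrays. The means of 0.03 ± 0.61, 0.43 ± 0.46 and 0.36 ± 0.54 did not pass (adjusted P = 0.959, 0.247 and 0.303, limma). With the block, *Elovl2* passed as higher at 3 days (adjusted P = 0.0109) and 7 days (adjusted P = 0.0161), although replicate 1 was below 0 at both times. That fit takes the differences between the numbers out of the error, so these passes do not measure the spread between pools. After H2-water its log2 ratio was -0.42, 0.04 and 0.02, and the mean of -0.12 ± 0.26 did not pass (adjusted P = 0.821).

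Among the saturated-chain elongases, *Elovl3* had its lowest ratios after H2-water. Its log2 ratio was -1.22, -0.18 and -1.27 after H2-water, against -0.45, 1.09 and 0.71 at 1 day, 0.14, 0.44 and 0.60 at 3 days and -0.26, 0.29 and -0.17 at 7 days of MgH2. Replicate 2 of H2-water lay within the range of the MgH2 arrays. The H2-water mean of -0.89 ± 0.62 did not pass (adjusted P = 0.0828, limma), but it passed with the slide as a random block (0.0431), with another background correction and loess (0.0404) and with the replicate block (0.0237). The MgH2 mean was higher than H2-water by 1.15 on the log2 scale, with a 95% interval of 0.44 to 1.86 (adjusted P = 0.0751). Control log2 levels of *Elovl3* ran from 1.19 to 2.26 over the MgH2 arrays and from 1.84 to 3.33 over the H2-water arrays.

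The 2 probes of *Elovl1*, which serves very long saturated chains, stayed close to 0. Their log2 ratios ran from -0.17 to 0.17 and from -0.40 to 0.05 over the MgH2 arrays, and from -0.11 to 0.10 and from -0.11 to 0.06 over the H2-water arrays. Neither passed in any comparison, and the MgH2 mean differed from H2-water by -0.01 (95% interval -0.18 to 0.17) and -0.09 (95% interval -0.31 to 0.12). With the block, the dimmer probe passed as lower at 3 days (-0.18, adjusted P = 0.0267) and 7 days (-0.17, adjusted P = 0.026), while the brighter one did not, so the 2 probes disagreed there. Across the 12 arrays the 2 probes correlated at r = 0.911, given as a description of arrays that share pools and slides.

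As a set, 3 of 10 member probes were called lower and none higher at 1 day of MgH2 (*Fads1*, *Fads2* and *Tecr*), where 4.24% of the 19660 probes tested were lower and 5.15% were higher. At 3 days 3 were lower (*Fads2*, *Elovl5* and *Tecr*) and none higher, against 11.1% and 12.3% of all probes. At 7 days *Fads2*, *Elovl5* and *Tecr* were lower and none higher, against 14.3% and 15.3%. After H2-water *Elovl5* was higher and none was lower, against 4.92% and 3.91%. The median log2 ratio over the 9 genes was -0.09, -0.20 and -0.14 at 1, 3 and 7 days of MgH2 and 0.05 after H2-water, where the medians over all probes tested ran from -0.0049 to 0.0061. With the replicate block, 6 member probes were lower and 1 higher at 3 days, where 15% of all probes tested were lower and 15.6% higher. At 7 days it called 5 lower and 1 higher, against 18% and 18.8%, and after H2-water 1 of each, against 6.62% and 7.1%. Fitted on the 3 arrays of a group alone, *Elovl5* passed at 3 days (adjusted P = 0.0492) and *Fads2* at 7 days (adjusted P = 0.0487), and no other called member did at its time, *Tecr* being at adjusted P = 0.164, 0.0684 and 0.0534 at 1, 3 and 7 days. That fit called 0.514%, 1.5% and 11.2% of all probes tested at 1, 3 and 7 days. The methods' t-test after Benjamini-Hochberg adjustment called none of the 10 in any group, where it called 0.336%, 0.175%, 0.375% and 0.255% of all probes tested. At an unadjusted P under 0.05 by that test were 3, 2, 3 and 1 of the 10, against 14.9%, 19.5%, 25.7% and 20.1% of all probes.

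Against H2-water, 2 of 10 member probes were called lower over the mean of the MgH2 days, *Elovl5* and *Fads2*, where 1.51% of the 18397 probes tested were. At 3 days and at 7 days 1 was called lower, *Elovl5*, against 1.23% and 3.45%. At 1 day limma called none, where 0.0748% of probes were called in either direction, and 5 member probes had an unadjusted P under 0.05, as did 12.5% of all probes. Among the 3 MgH2 days the F test called none against 2.58%, with 2 at an unadjusted P under 0.05, as were 19.6% of all probes. The ratios of 4 member probes (*Elovl5*, *Scd2*, *Fads2* and *Tecr*) were lower on all 9 MgH2 arrays than on all 3 H2-water arrays, an arrangement found in 2.44% of probes. No member was higher on all 9, against 3.42%.

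**Figure D3:**
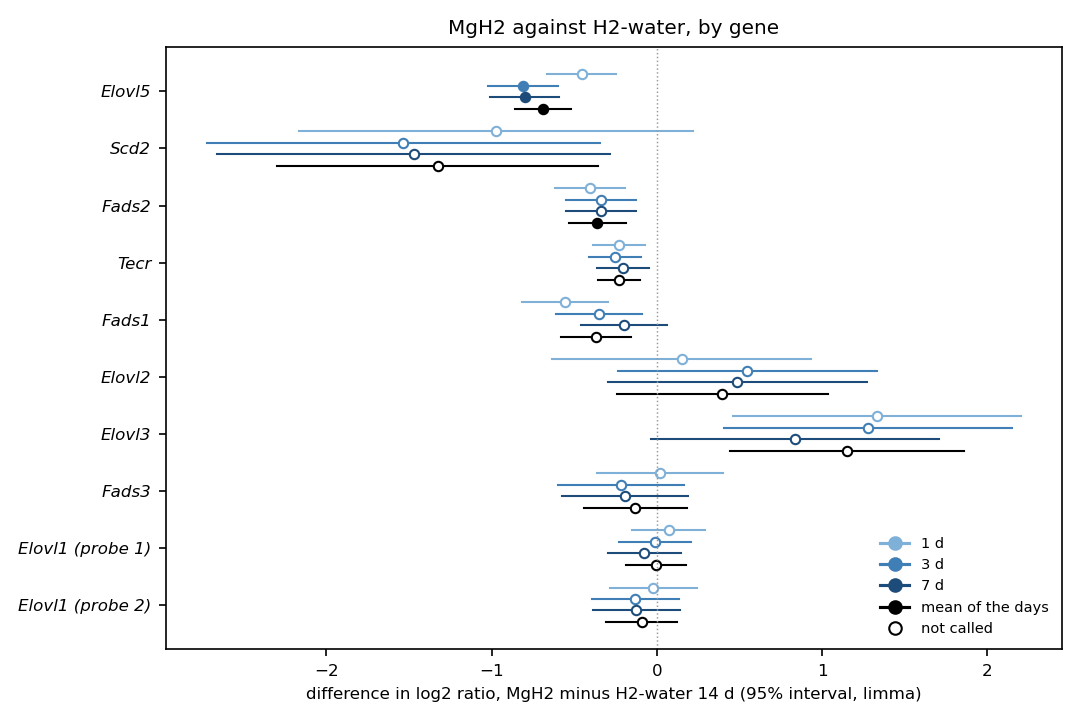
Difference in log2 ratio between MgH2 and H2-water for each member probe, at 1, 3 and 7 days and over their mean, as points with 95% intervals from limma before adjustment, filled where the adjusted P was under 0.05. *Elovl5* is filled at 3 days, 7 days and over the mean, and *Fads2* over the mean alone.

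Of 8 other enzymes of the elongation cycle listed, 6 were tested at 3 and 7 days of MgH2, of which 2 were lower and 1 was higher at each, and *Hacd1*, *Hacd2* and *Hacd4* did not pass at either. Among all probes tested, 11.1% and 14.3% were lower and 12.3% and 15.3% higher at these times. *Elovl6*, which lengthens palmitate, was lower by a log2 ratio of -1.39 at 3 days (adjusted P = 0.00476) and -1.70 at 7 days (adjusted P = 0.00117). *Hsd17b12*, the ketoacyl-CoA reductase of the cycle, was at -0.42 and -0.51 (adjusted P = 0.000929 and 0.000208). *Hacd3*, a hydroxyacyl-CoA dehydratase, was at 0.18 and 0.19 (adjusted P = 0.0137 and 0.00821). By limma 0 of the list were called at 1 day and 0 after H2-water, with 0 and 1 at an unadjusted P under 0.05. The shares of all probes were 9.39% and 8.84% called, and 26.2% and 24.4% before adjustment.

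Of 9 listed desaturases and their electron carriers, 7 were tested under MgH2. At 3 and 7 days 3 were lower and 1 was higher, where 11.1% and 14.3% of all probes were lower and 12.3% and 15.3% higher. *Scd1*, the main stearoyl-CoA desaturase of liver, was at -1.22 and -1.18, and *Scd3* was at -1.22 and -1.27. *Cyb5r3*, the reductase that passes electrons to cytochrome b5, was at -0.34 and -0.38, and *Cyb5a*, a cytochrome b5, was at 0.14 and 0.14. After H2-water *Cyb5b*, another cytochrome b5, was higher at 0.28 and *Degs1*, the dihydroceramide desaturase, was lower at -0.22, the latter also lower at 1 day of MgH2 at -0.23. *Scd1* had a spot left out after H2-water and was not tested there. The stearoyl-CoA desaturases are close relatives, and whether their probes are specific was not tested.

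Of 17 lipogenic genes and regulators listed, 16 were tested at 3 and 7 days of MgH2, of which 7 were lower and 1 was higher at each, with a list median of -0.39 and -0.38. Among all probes tested, 11.1% and 14.3% were lower and 12.3% and 15.3% higher. *Fasn*, which makes palmitate, was at -1.73 and -1.70, *Acacb* at -0.77 and -0.83 and *Acaca* at -0.76 and -0.85, both acetyl-CoA carboxylases. *Srebf1* was at -0.86 at 7 days (adjusted P = 0.000889). *Insig2*, which retains SREBP in the endoplasmic reticulum, was at 0.65 at 3 days. At 1 day and after H2-water only *Mlxipl*, the carbohydrate-responsive factor ChREBP, passed, being higher at 0.33 and 0.40. At these times 5.15% and 4.92% of all probes were higher. The median of the list was 0.14 after H2-water, with 14 of 17 genes above 0. Over the mean of the MgH2 days against H2-water, 3 of 16 were lower, *Me1*, the malic enzyme, by a difference of -0.68, *Mlxipl* by -0.54 and *Acacb* by -0.52, and the list median was -0.53 where that of all probes was 0.01. In that contrast 1.51% of all probes were lower.

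Of 17 genes for activation of polyunsaturated chains, the peroxisomal step to docosahexaenoic acid and phospholipid remodelling, 14 were tested, of which 4 were lower and 1 higher at both 3 and 7 days of MgH2. Among all probes tested, 11.1% and 14.3% were lower and 12.3% and 15.3% higher. *Acsl3* and *Acsl5*, acyl-CoA synthetases, were at -0.55 and -0.39 at 3 days and at -0.67 and -0.31 at 7 days. *Acaa1b*, a peroxisomal thiolase, was at -0.39 and -0.47. At 1 day of MgH2 1 gene of the list was higher and 0 were lower, against 5.15% and 4.24% of all probes. After H2-water 1 was higher, *Acaa1a*, another peroxisomal thiolase, at 0.25, against 4.92% of all probes. Over the mean of the MgH2 days against H2-water 3 of the 14 were lower, *Acsl3* (-0.64), *Acaa1b* (-0.64) and *Acsl5* (-0.35), against 1.51% of all probes. Of 17 clock genes, 13 were tested in each group, without *Cry1* under MgH2 and without *Ciart* after H2-water. In the 4 group tests 1 was called, *Cry2* at 7 days (0.36, adjusted P = 0.00652, limma). Of all probes tested, 9.39%, 23.4% and 29.5% were called at 1, 3 and 7 days of MgH2 and 8.84% after H2-water.

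**Figure D4:**
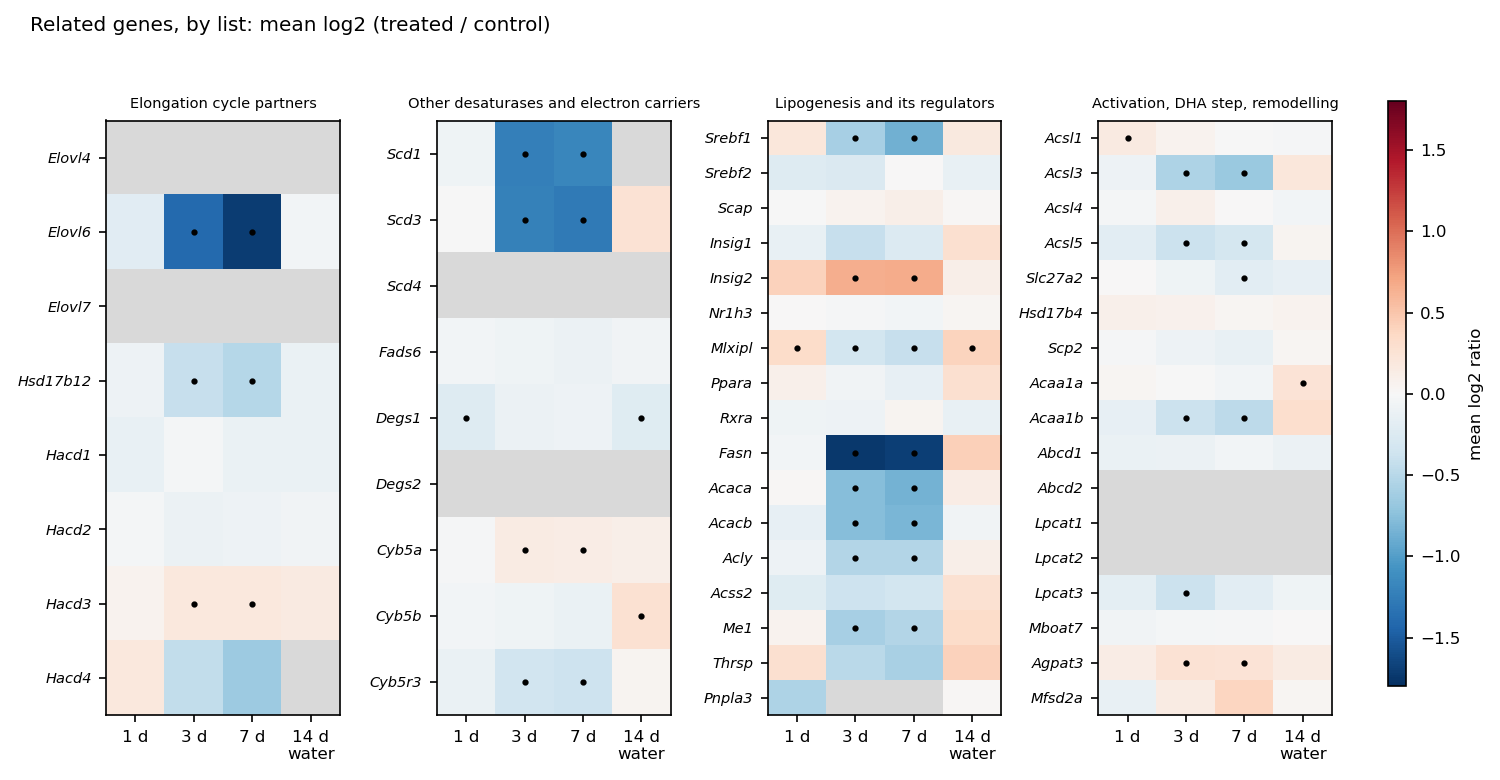
Mean log2 ratio of treated over control of the genes in the 4 lists at 1, 3 and 7 days of MgH2 and after 14 days of H2-water, in color from -1.8 to 1.8, with a dot where the adjusted P was under 0.05 (limma) and gray where a gene was not tested. *Elovl6*, *Scd1*, *Scd3* and *Fasn* are the darkest rows at 3 and 7 days, between -1.18 and -1.73.

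The genes whose ratios were most like those of a called member over the 12 arrays were found by Pearson correlation over 18397 probes, as a description of arrays that share pools and slides. For *Elovl5* they were *Dbi*, which binds acyl-CoA (r = 0.97), *Ermp1* (0.958) and *Acsl5* (0.955). For *Tecr* they were *Acss2*, an acetyl-CoA synthetase (0.947), *Pex5* (0.935) and *Slc25a1*, the mitochondrial citrate carrier (0.932). For *Fads1* they were *Trap1* (0.917), *Cyp51*, a sterol demethylase (0.916), and *Cd1d1* (0.907), and for *Fads2* they were *Trap1* (0.937), *Ap2b1* (0.907) and *Stk38* (0.896). Between members, *Fads1* and *Fads2* correlated at r = 0.823 and *Scd2* and *Elovl2* at r = -0.843.

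Markers of other liver cells moved at the MgH2 times at which *Elovl5* was lower. Of 7 Kupffer cell and leukocyte markers, 3 were lower at 3 days and 5 at 7 days, against 1 at 1 day. The share of all probes tested that were lower also rose, from 4.24% at 1 day to 11.1% and 14.3% at 3 and 7 days. After H2-water the count of these markers was 0 by limma, against 3.91% of all probes lower, and also 0 before adjustment of P. At 7 days *Ptprc*, the leukocyte antigen CD45, was at -0.70, and the Kupffer cell genes *Vsig4*, *Cd5l* and *Clec4f* were at -0.47, -0.47 and -0.45. Their summed level, in multiples of the channel median, was 38 to 45.8 in control and 30.5 to 35 in treated pools at 3 days, and 39.6 to 45.8 and 30.6 to 33.5 at 7 days. Of 5 stellate cell markers tested, 3 were lower at both times, and the list summed to 3.35 to 4.31 in control and 2.8 to 3.2 in treated pools at 3 days. Of 6 hepatocyte markers, 2 at 3 days and 3 at 7 days were higher, against 12.3% and 15.3% of all probes, with *Alb* at 0.25 and 0.41. The hepatocyte sum, taken without *Cyp2e1* because of a spot left out, was 0.12 to 0.21 higher in treated pools on the log2 scale at 3 days and 0.17 to 0.27 at 7 days. In bulk RNA, fewer cells of a type and less RNA per cell cannot be told apart, and the part of these shifts in the member ratios was not tested.

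The defining adipocyte markers *Adipoq*, *Lep*, *Plin1* and *Ucp1* were not well above background on all arrays of any group. *Cidea*, a lipid droplet gene also made by fatty liver, was lower at 7 days (-1.82, adjusted P = 0.0396). The summed adipocyte list ran from 0.224 to 0.956 in control pools and from 0.204 to 0.24 in treated pools at 7 days. Of 6 endothelial markers, 2 were higher and 1 lower at 3 days, 1 higher and 1 lower at 7 days and 1 lower after H2-water. Among all probes tested, 12.3% were higher and 11.1% lower at 3 days, and 15.3% and 14.3% at 7 days. After H2-water 3.91% were lower. Of 3 cholangiocyte markers tested at 3 days, *Spp1* was lower and 2 were not called. *Ctrb1*, the only pancreas acinar marker tested, was lower at 3 days (-0.11). Of 4 blood markers tested, *Alas2* was lower at 3 days, 7 days and after H2-water, and the globin genes were not called in any group. At 3 days *Hba-a1*, *Hba-a2* and *Hbb-bt* were at -0.02, 0.15 and 0.12, against -0.56 for *Alas2*.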

How the data were processed

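Liver RNA pools were compared on 12 two-color Agilent arrays. The authors scanned them and extracted them with Agilent Feature Extraction (10.10.1 per the submitters' processing notes, 10.7.3.1 for 14 days and 10.10.1.1 for MgH2 per the file headers). The deposited intensity of each channel is background-corrected and dye-normalized within the array and not scaled between arrays. The deposited table of log2 ratios equals the log10 ratio that the authors' software computed, put on the log2 scale (largest difference 1.4e-06), and every column has a median of 0. The deposited raw median intensities served the alternative with normexp (offset 50) and loess.

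Control spots and spots marked as non-uniform or as outliers were left out, 160 to 244 per array, and no spot was saturated. The log2 ratio of the processed Cy5 over Cy3 intensity was averaged over the spots of a probe. Of 39429 probes, 26412 (67.0%) were named by RefSeq record. A gene is represented by its brightest probe.

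A linear model with a mean for each group took in the 12 arrays (limma 3.58.1, R 4.3.3), with a common variance for the groups. Each group mean was set against 0, contrasts were tested two-sided, and P values were adjusted by Benjamini-Hochberg over those probes well above background in both dyes on all arrays compared. A probe was called at an adjusted P under 0.05. By the study's methods, RNA of 9 mice per group was divided into 3 pools of 3 mice, so P values measure the spread between pools. The number of arrays limits the precision.

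Ratios of the MgH2 days correlated within a replicate number (r from 0.368 to 0.655 over 9 pairs). For the same pairs r was 0.321 to 0.67 in the control channel and -0.296 to 0.176 in the treated channel. The likeness within a number was thus seen in the control channel and not in the treated one. With H2-water, r for numbers 1, 2 and 3 was 0.271, 0.186 and 0.149 at 1 day, 0.161, -0.041 and 0.14 at 3 days, and 0.288, 0.233 and 0.035 at 7 days. The replicate block was an alternative, as were other scalings, filters, blocks for slide, the methods' t-test and leaving out arrays. The replicate block fitted the numbers as effects common to all 4 groups, H2-water included. It takes the spread between numbers out of the error, so a group mean that passes only with it is not read as support across pools. A random block of number within experiment, averaging the MgH2 days within a number and leaving out a number at all MgH2 days were added after seeing the data.

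The members and lists were chosen with earlier results of these data known. Of the related lists, genes were named that passed in a group test or the pooled contrast, at most 4 per list and comparison, largest first. A gene of these lists is not reported here. The fit was tested on simulated data. Promoter sequences are those of RefSeq on GRCm38.p6.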

Additional observations from a re-analysis of the deposited data

Results flagged for a closer look

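The difference between MgH2 and H2-water passed its own test for *Elovl5* at 3 days (-0.81 on the log2 scale), at 7 days (-0.80) and over the mean of the MgH2 days (-0.69), with every MgH2 array below 0 and every H2-water array above 0. It passed for *Fads2* over the mean of the MgH2 days (-0.36), with 9 of 9 MgH2 arrays and 1 of 3 H2-water arrays below 0. The MgH2 days may share their controls, so these 9 arrays are not 9 independent replicates. With the MgH2 days averaged within a replicate number, neither gene passed over the mean, and 0 of the 18397 probes tested did. The 2 treatments cannot be told apart from slide, software, duration and control.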

How the results depend on the processing

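The number of the 10 member probes called under each setting is given here. The replicate block called 7 at 3 days, 6 at 7 days and 2 after H2-water in place of 3, 3 and 1, and against H2-water 2, 7 and 4 at 1, 3 and 7 days and 6 over the mean, in place of 0, 1, 1 and 2. Of all probes tested it called 30.6%, 36.8% and 13.7%, and against H2-water 0.849%, 6.99%, 13.3% and 8.94%, where the fit reported called 23.4%, 29.5% and 8.84%, and 0.0748%, 2.43%, 6.61% and 3.25%. Normexp with loess called 2 after H2-water, 1, 2 and 2 against it at 1, 3 and 7 days and 4 over the mean, against 12.7%, 0.481%, 3.14%, 6.77% and 4.48% of all probes. The slide as a random block called 2 after H2-water, 2 against it at both 1 and 7 days, 5 over the mean and 1 in the F test in place of 0, against 13.7%, 0.742%, 11.4%, 8.8% and 6.54%. With no filter on dim probes 1 was called at 1 day, 2 at 3 days and 1 over the mean, against 1.81%, 6.16% and 1.52% of all probes. With only the arrays compared in the fit, 0 were called at 1 day, 1 at 3 days and 1 at 7 days, against 0.514%, 1.5% and 11.2%. The methods' t-test after adjustment called 0 in each of the 4 groups, against 0.336%, 0.175%, 0.375% and 0.255% of all probes. Of the alternatives chosen after seeing the data, the random block of number within experiment called 4 at 3 days and 4 at 7 days, against 23.1% and 29.6%. This block called 1 over the mean and 2 in the F test, against 0.902% and 14.6%. The fit of 3 averaged values against 3 called 0 member probes and 0 of the 18397 probes tested. Leaving out 1 array, or 1 number at all MgH2 days, gave 1 to 2 at 1 day, 2 to 4 at 3 days, 2 to 3 at 7 days and 0 to 1 after H2-water. Against H2-water it gave 0 at 1 day, 0 to 1 at 3 days, 1 to 2 at 7 days and 1 to 4 over the mean, and in the F test 0 to 1. The share of all probes called in these leave-out fits is not given here, so their member counts cannot be set against it.

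No member that was called changed its sign under these settings. *Elovl5* over the mean had an adjusted P of 0.00334, 0.047 and 0.0453 without number 1, 2 and 3, and *Fads2* had 0.0545, 0.103 and 0.109. Without number 1, *Scd2* (-1.71, adjusted P = 0.0302), *Elovl2* (0.70, 0.0234) and *Elovl3* (1.38, 0.0254) passed. Over all probes the calls ran from 66 to 3045 at 1 day (1846 in the fit reported), 34 to 5936 at 3 days (4537), 73 to 8560 at 7 days (5748) and 52 to 2800 after H2-water (1804), the lowest being the methods' t-test. The cause of these shifts was not tested. All 10 member probes were well above background on all 12 arrays.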
